A study of Rattus norvegicus with 12 samples.

Results

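The genes described here are 10 components and targets of transforming growth factor beta (TGF-beta) signalling in rat uterus. They are the 3 ligand genes Tgfb1, Tgfb2 and Tgfb3, the 3 receptor genes Tgfbr1, Tgfbr2 and Tgfbr3, the latent ligand binding protein gene Ltbp1, the signal transducer Smad3, the inhibitory Smad gene Smad7, and the matrix target Tgfbi. Members were chosen by symbol, and all 10 were found among the 26312 genes of the deposited tables and passed the filter on low counts. The data are polyA RNA-seq profiles of 12 TruSeq libraries, 3 in each of 4 groups. Female rats of 2 strains, Holtzman Sprague Dawley (HSD) and Brown Norway (BN), were 10 weeks old, and all had their ovaries removed and were then rested for 2 weeks. The groups HSD-P4 and BN-P4 were given 40 µg of progesterone per g body weight subcutaneously, and HSD-Oil and BN-Oil received the sesame oil vehicle. Uterus was collected after 9 hours, so every value is a single time and dose in whole tissue of ovariectomised animals. Nothing in the labels says that the titles' different numbers mark different animals, so p-values measure the spread between libraries of a group.

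TGF-beta ligands are secreted bound to their own propeptide and to a latent TGF-beta binding protein such as LTBP1, which holds them in the matrix until they are released. A released ligand binds the type II receptor (TGFBR2), which recruits and phosphorylates the type I receptor (TGFBR1), while the type III receptor (TGFBR3, betaglycan) presents ligand to them. The activated type I receptor phosphorylates SMAD2 and SMAD3, which enter the nucleus with SMAD4, and SMAD7 is an induced inhibitor that acts on the type I receptor. TGFBI is a secreted matrix protein named for its induction by TGF-beta. In the uterus the pathway is known for roles in stromal and smooth muscle matrix and in decidualisation.

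The libraries held between 11763894 and 19033254 total gene reads, and 3 reads corresponded to between 0.158 and 0.255 CPM (counts scaled to a common total). Levels below are CPM after TMM scaling, a level per library that is not scaled by gene length, unless RPKM is named. Fkbp5, a progesterone-induced gene used as a check of treatment, rose in HSD, from 14.1 ± 1.75 under oil to 103 ± 13.3 CPM under progesterone (SD, n = 3), and in BN, where the levels were 21.3 ± 2.33 and 80.9 ± 2.03 CPM. HSD-P4 replicate 3 stood apart in its smooth muscle markers. Its 7 smooth muscle markers found in the files summed to 5934 CPM, against 9484 and 13113 CPM in the other libraries of its group and between 7682 and 14623 CPM in the other groups. Its endothelial and mesothelial marker sums, 446 and 245 CPM, were also the lowest of the 12 libraries. Fits of total gene reads without this library are given for most members. Exon, intron and RPKM values are given with it alone. In whole tissue, fewer cells of a type and less RNA per cell cannot be told apart. Library barcodes do not overlap between the 4 groups, so a batch that follows the barcodes and the group cannot be told apart.

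Per kilobase of exon, Tgfbi was the most abundant member in every group, at 123 ± 2.77 RPKM in HSD-Oil, 54.7 ± 11.6 in HSD-P4, 166 ± 18.8 in BN-Oil and 102 ± 8.98 in BN-P4 (SD, n = 3). Tgfbr2 came second in every group, between 37.2 ± 14.3 RPKM in HSD-P4 and 84.9 ± 14.5 in BN-Oil, and its libraries overlapped those of Tgfbi in HSD-P4 alone. Tgfbr3 and Ltbp1 followed, with Tgfbr3 ahead in HSD and Ltbp1 ahead in BN. Their libraries overlapped in HSD-Oil, HSD-P4 and BN-P4 and did not in BN-Oil, where Ltbp1 was at 64.7 ± 11.3 RPKM and Tgfbr3 at 46.7 ± 5.69. Tgfbr1 came next in every group, between 20.1 ± 3.33 RPKM in HSD-Oil and 25.7 ± 0.180 in BN-P4. The ligands and the Smads were lowest. Of the ligands, Tgfb3 led in HSD-Oil, HSD-P4 and BN-Oil and Tgfb2 in BN-P4, and in BN-P4 and in both HSD groups the leading ligand overlapped its neighbour. Smad3 and Smad7 were within 4.43 ± 1.42 RPKM (Smad3 in HSD-P4) and 9.44 ± 2.89 RPKM (Smad7 in HSD-P4).

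**Figure D1:**
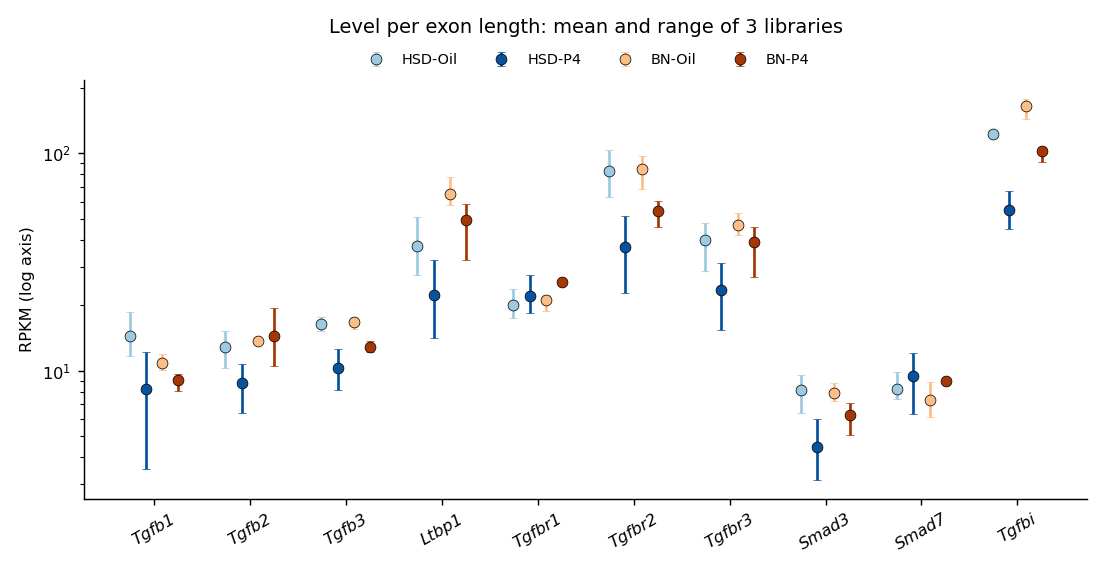
Level of each of the 10 genes in RPKM, which is scaled by exon length, on a log axis; points are means of 3 libraries in each of the 4 groups and bars span the lowest to the highest library. Tgfbi is highest in every group and Tgfbr2 second, and the Smads and ligands lie at the low end.

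The question asked first was what progesterone does to these genes in HSD uterus. In HSD, 5 of the 10 members fell and 0 rose at a Benjamini-Hochberg adjusted p below 0.05 in edgeR's quasi-likelihood test, where 39.1% of 15697 tested genes were called, 20.3% higher and 18.7% lower. The 5 were Tgfbi, Tgfbr2, Tgfb3, Tgfbr3 and Smad3. The median log2 change of the members was -0.56, beside -0.02 over all tested genes. In BN, 2 members fell, Tgfbi and Tgfb3, against 25.8% of genes called in either direction, 14.0% higher and 11.8% lower. The BN median was -0.14 for the members and -0.01 for all genes. Of the single libraries left out, HSD-Oil replicate 1 or 3 or HSD-P4 replicate 1 brought the HSD count to 3 members. Over all genes these fits called 30.1%, 32.1% and 31.9% in HSD, against 39.1%. Without HSD-P4 replicate 3, Tgfbi, Tgfbr2 and Tgfb3 were still called lower in HSD. Tgfbr3 (adjusted p = 0.0881) and Smad3 (adjusted p = 0.0743) were then not called. Smad7 was called higher in that fit (log2 0.57, adjusted p = 0.0254), so the HSD calls no longer all ran lower. It called 35.6% of all genes in HSD. The BN count was 4 without HSD-P4 replicate 3, where 31.8% of all genes were called, against 25.8%. It was 1 without HSD-P4 replicate 1, BN-Oil replicate 1 or 3, or BN-P4 replicate 1 or 2. Those fits called between 16.4% and 24.7% of all genes in BN.

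Tgfbi was at 348, 343 and 341 CPM in the HSD-Oil libraries and at 156, 203 and 137 CPM in HSD-P4. BN-Oil libraries held 504, 407 and 493 CPM and BN-P4 libraries 299.8, 261 and 306 CPM. Every progesterone library was below every oil library of its strain, so the groups did not overlap. The fitted log2 change was -1.05 ± 0.14 (SE) in HSD, a level 0.481 times that under oil, with an edgeR adjusted p of 0.000109. In BN it was -0.70 ± 0.14, a level 0.617 times that under oil, with an edgeR adjusted p of 0.0034. Tgfbi was called lower in HSD and BN under each of the 23 other settings tried, and without HSD-P4 replicate 3 the HSD change was -0.94.

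Tgfbr2, the type II receptor gene, was at 251, 161 and 201 CPM in HSD-Oil and at 100.2, 130.5 and 67.3 CPM in HSD-P4. The HSD groups did not overlap, and HSD-P4 replicate 3 was the lowest of all 12 libraries. The HSD log2 change of Tgfbr2 was -1.04 ± 0.22 (edgeR adjusted p = 0.00241), a level 0.486 times that under oil. Without HSD-P4 replicate 3 the change was -0.83 (adjusted p = 0.00532). In BN the libraries were at 239, 183 and 225 CPM under oil and at 145, 123 and 154 CPM under progesterone, again with no overlap. There the log2 change was -0.62 ± 0.22 with an edgeR adjusted p of 0.0522, on the other side of the threshold, and the 95% interval ran from -1.11 to -0.12. The BN change passed under 12 of the 23 other settings, among them without HSD-Oil replicate 1 or 2, HSD-P4 replicate 2 or 3, or BN-Oil replicate 2, with changes between -0.61 and -0.74 and adjusted p between 0.0155 and 0.0481. Averaged over strains, Tgfbr2 fell by 0.83 ± 0.15 on the log2 scale (adjusted p = 0.000693).

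The change in Tgfbr2 stands beside a different pattern for its partner Tgfbr1, the type I receptor gene. Tgfbr1 was at 102, 139 and 112 CPM in HSD-Oil and at 118, 122 and 179 CPM in HSD-P4, and the groups overlapped. In BN it was at 109.9, 129 and 129 CPM under oil and 152, 154 and 154 CPM under progesterone, with no overlap. Neither strain passed on its own, with log2 changes of 0.25 ± 0.16 in HSD (edgeR adjusted p = 0.235) and 0.32 ± 0.16 in BN (adjusted p = 0.153). Averaged over strains Tgfbr1 rose by 0.29 ± 0.11 at an adjusted p of 0.0492, a call lost under 16 of 22 other settings. These include leaving out any one of HSD-Oil replicates 1 and 3, HSD-P4 replicate 3 or the 6 BN libraries, with values between 0.18 and 0.30 and adjusted p between 0.0709 and 0.128. Without HSD-P4 replicate 3, the highest Tgfbr1 library of its group, the HSD change was 0.03 (adjusted p = 0.884), and the BN change was called (log2 0.33, adjusted p = 0.0345). Between 83.1% and 87.3% of Tgfbr1 reads in a library were placed uniquely, so its level is uncertain by the remainder, which other loci may share. The ratio of Tgfbr2 to Tgfbr1 RPKM, given as a description, was 5.96, 2.64 and 4.33 in HSD-Oil and 2.02, 2.58 and 0.828 in HSD-P4. In BN it was 5.13, 3.10 and 3.99 under oil and 2.20, 1.79 and 2.33 under progesterone. All 6 progesterone libraries lay below the oil libraries of their strain in this ratio.

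Tgfbr3, the co-receptor gene, was at 215, 151 and 204 CPM in HSD-Oil and at 129, 155 and 102 CPM in HSD-P4. The ranges overlapped through HSD-Oil replicate 2 and HSD-P4 replicate 2. Its HSD log2 change was -0.56 ± 0.18 (edgeR adjusted p = 0.0257), and without HSD-P4 replicate 3 it was -0.42 and not called (adjusted p = 0.0881). The HSD call was also lost without HSD-Oil replicate 1 (log2 -0.46, adjusted p = 0.103), HSD-Oil replicate 3 (log2 -0.51, adjusted p = 0.0829) or HSD-P4 replicate 1 (log2 -0.57, adjusted p = 0.0666). BN libraries were at 238, 194 and 204 CPM under oil and 212, 149 and 199 CPM under progesterone, and the BN log2 change of -0.19 was not called (adjusted p = 0.494). Averaged over strains Tgfbr3 fell by 0.37 ± 0.13 (adjusted p = 0.0273), and the adjusted p was between 0.0523 and 0.0652 without any one of HSD-Oil replicates 1 and 3, HSD-P4 replicates 1 and 3, BN-Oil replicate 1 or BN-P4 replicate 2.

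**Figure D2:**
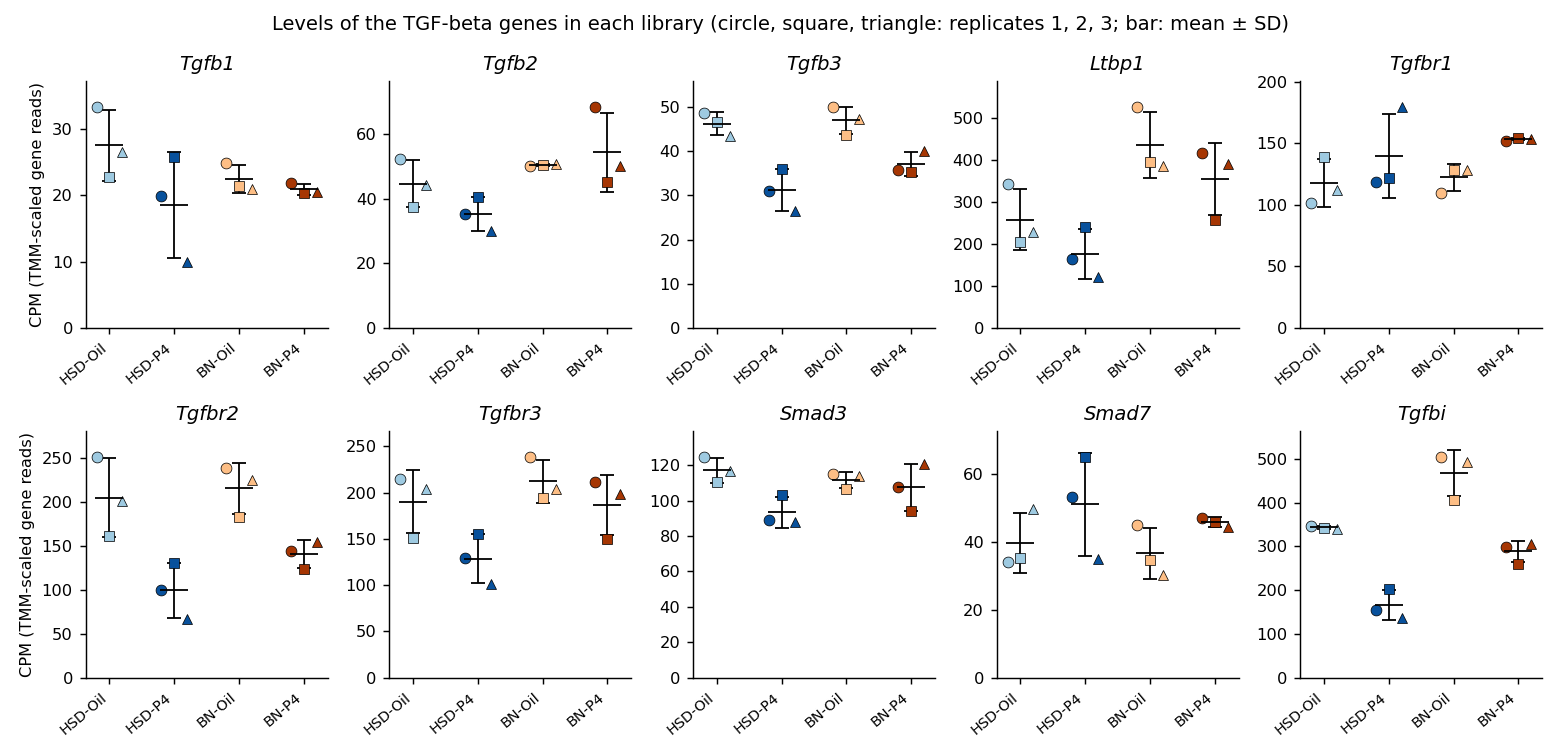
CPM of each member in each library, with the 4 groups along the horizontal axis and each vertical axis starting at 0; circles, squares and triangles are replicates 1, 2 and 3, and bars are the mean ± SD. The P4 points of Tgfbi, Tgfbr2 and Tgfb3 lie below all Oil points of the same strain.

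Of the 3 ligands, Tgfb3 was lower with progesterone in both strains. It was at 48.6, 46.5 and 43.5 CPM in HSD-Oil and 31.0, 36.1 and 26.5 CPM in HSD-P4, and at 49.9, 43.7 and 47.3 CPM in BN-Oil and 35.8, 35.2 and 40.1 CPM in BN-P4. Neither pair of groups overlapped. The log2 change was -0.57 ± 0.12 in HSD (edgeR adjusted p = 0.00241), and the HSD call was lost under none of the 23 other settings. In BN it was -0.34 ± 0.12 (adjusted p = 0.0493), a call lost under 10 of the 23. Among these were leaving out HSD-Oil replicate 2, HSD-P4 replicate 1, BN-Oil replicate 1 or 3, or BN-P4 replicate 1 or 2, with changes between -0.31 and -0.35 and adjusted p between 0.0598 and 0.127.

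Tgfb1 was at 33.2, 22.8 and 26.5 CPM in HSD-Oil and at 19.9, 25.7 and 10.02 CPM in HSD-P4, and the groups overlapped. In BN it was at 24.9, 21.4 and 21.0 CPM under oil and 21.8, 20.3 and 20.6 CPM under progesterone. Its changes were -0.57 ± 0.25 in HSD (adjusted p = 0.0947) and -0.10 ± 0.25 in BN (adjusted p = 0.811), and neither was called. Tgfb1 in HSD passed without HSD-P4 replicate 2 (log2 -0.89, adjusted p = 0.0112), while without replicate 3 it was -0.27 (adjusted p = 0.231).

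Tgfb2 was at 52.1, 37.5 and 44.3 CPM in HSD-Oil, 35.3, 40.3 and 29.8 CPM in HSD-P4, 50.1, 50.4 and 50.6 CPM in BN-Oil and 68.1, 45.0 and 49.9 CPM in BN-P4. The change was -0.34 ± 0.17 in HSD (adjusted p = 0.119) and 0.11 ± 0.16 in BN (adjusted p = 0.673), neither called. The HSD change was -0.24 without HSD-P4 replicate 3 (adjusted p = 0.31) and -0.45 without HSD-P4 replicate 2 (adjusted p = 0.0682). The 3 ligands summed to 43.6 ± 6.88 RPKM in HSD-Oil, 27.2 ± 8.78 in HSD-P4, 41.2 ± 1.92 in BN-Oil and 36.3 ± 5.33 in BN-P4. By library the sum was 51.4, 38.2 and 41.3 RPKM in HSD-Oil and 28.1, 35.5 and 18.1 in HSD-P4, lowest in HSD-P4 replicate 3. The sum carries no TMM scaling. Within that sum Tgfb3 held a mean share between 35.6% and 40.5% over the 4 groups, Tgfb2 between 29.3% and 39.3%, and Tgfb1 between 25.0% and 32.9%, given as a description without a test.

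The remaining members were the latent binding protein and the Smads. Ltbp1 was at 341, 204 and 229 CPM in HSD-Oil and 163, 240.0 and 122 CPM in HSD-P4, and at 524, 394 and 386 CPM in BN-Oil and 416, 257 and 389 CPM in BN-P4. The groups overlapped within each strain. Its log2 changes of -0.56 ± 0.26 in HSD (adjusted p = 0.112) and -0.30 ± 0.26 in BN (adjusted p = 0.446) were not called, and its HSD change was called without HSD-P4 replicate 2 (log2 -0.84, adjusted p = 0.0226). Without HSD-P4 replicate 3 it was -0.36 (adjusted p = 0.338).

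Smad3 was at 125, 110.5 and 116 CPM in HSD-Oil and 88.9, 103 and 88.0 CPM in HSD-P4, with no overlap. The HSD change was -0.33 ± 0.11 (adjusted p = 0.0284). Leaving out HSD-P4 replicate 3 gave -0.29 and an adjusted p of 0.0743, and the call was also lost without HSD-Oil replicate 1 (log2 -0.27, adjusted p = 0.118), HSD-Oil replicate 3 (log2 -0.33, adjusted p = 0.0687) or HSD-P4 replicate 1 (log2 -0.29, adjusted p = 0.0982). In BN Smad3 was at 115, 107 and 114 CPM under oil and 108, 94.3 and 121 CPM under progesterone, a change of -0.05 ± 0.11 (adjusted p = 0.757). Smad7 was at 33.9, 35.3 and 49.6 CPM in HSD-Oil and 53.1, 64.8 and 34.9 CPM in HSD-P4, and at 44.9, 34.5 and 30.2 CPM in BN-Oil and 47.0, 45.9 and 44.2 CPM in BN-P4. The HSD and BN changes of Smad7 were 0.36 ± 0.21 (adjusted p = 0.2) and 0.32 ± 0.22 (adjusted p = 0.304), not called. Without HSD-P4 replicate 3, whose Smad7 level was the lowest of its group, the HSD change was 0.57 (adjusted p = 0.0254), and without HSD-P4 replicate 2, the highest, it was 0.16 (adjusted p = 0.568).

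The averaged comparison over both strains called 4 members lower (Tgfbi, Tgfbr2, Tgfb3 and Tgfbr3) and 1 higher (Tgfbr1), where 48.4% of genes were called, 24.6% higher and 23.7% lower. The averaged Tgfbi change was -0.88 ± 0.10 (adjusted p = 1.66e-05). Values for the other 5 members, none of them called, were Smad3 -0.19 (adjusted p = 0.0529), Ltbp1 -0.43 (adjusted p = 0.0742), Smad7 0.34 (adjusted p = 0.0799), Tgfb1 -0.34 (adjusted p = 0.142) and Tgfb2 -0.12 (adjusted p = 0.434). Leaving out HSD-P4 replicate 2 brought Tgfb1 to -0.50 (adjusted p = 0.0186), Ltbp1 to -0.58 (adjusted p = 0.015) and Smad3 to -0.23 (adjusted p = 0.0238), and leaving out BN-P4 replicate 3 brought Smad3 to -0.24 (adjusted p = 0.0241). Smad7 passed without HSD-Oil replicate 3 (log2 0.43, adjusted p = 0.0325), HSD-P4 replicate 3 (log2 0.45, adjusted p = 0.00887) or BN-Oil replicate 1 (log2 0.42, adjusted p = 0.0388). In the other direction, leaving out HSD-P4 replicate 3 brought Tgfb1 to -0.19 (adjusted p = 0.192), Ltbp1 to -0.33 (adjusted p = 0.165) and Smad3 to -0.17 (adjusted p = 0.0929), and leaving out HSD-P4 replicate 2 brought Smad7 to 0.23 (adjusted p = 0.189). Without HSD-P4 replicate 2 the number of members called was 8, and without HSD-Oil replicate 1 or BN-P4 replicate 2 it was 3. Over all genes the first of these fits called 50.7% and the others 43.6% each, against 48.4%. The tissue was checked against marker lists. All 9 epithelial and 8 stromal markers were found and tested, and their sums ran from 775 to 1263 CPM and from 3086 to 4294 CPM over the 12 libraries. The 7 of 8 smooth muscle markers in the files summed to between 7682 and 11783 CPM in HSD-Oil, 5934 and 13113 in HSD-P4, 11403 and 14623 in BN-Oil and 8865 and 11855 in BN-P4. The 7 smooth muscle markers had a median log2 change of -0.17 in HSD and -0.12 in BN, with 0 called in either and 1 called lower averaged over strains. The 8 endothelial markers had a median of -0.19 in HSD, where 1 was called higher and 1 lower, and -0.33 in BN, where 0 were called, and averaged over strains 1 was called higher and 3 lower. Of the 8 stromal markers 2 were called higher and 1 lower in each strain. The endothelial sums ran from 530 to 674 CPM in HSD-Oil, 446 to 632 in HSD-P4, 736 to 838 in BN-Oil and 553 to 721 in BN-P4. The 5 mesothelial markers had medians of -0.58 and -0.20, with 0 and 1 called, and sums from 336 to 431 CPM in HSD-Oil, 245 to 362 in HSD-P4, 473 to 538 in BN-Oil and 379 to 447 in BN-P4. Of the 9 epithelial markers 1 was called lower in HSD, 1 higher and 1 lower in BN, and 1 higher and 2 lower averaged over strains. The 8 macrophage and dendritic cell markers had medians of 0.23 in HSD, where 2 were called higher, and -0.08 in BN, where 0 were called. Averaged over strains 3 of them were called higher and 1 lower. They summed to between 453 and 755 CPM, and the T and NK cell markers (6 of 8 tested) to between 6.17 and 15.9 CPM. The platelet markers (2 of 6 tested) summed to between 8.54 and 14.4 CPM, with Gp5 at 0 in HSD-Oil and Ppbp at 0 in the other groups. None of the smooth muscle, endothelial, stromal or epithelial markers found in the files was at 0 in any group, and the part of cell make-up in the members' changes was not tested.

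**Figure D3:**
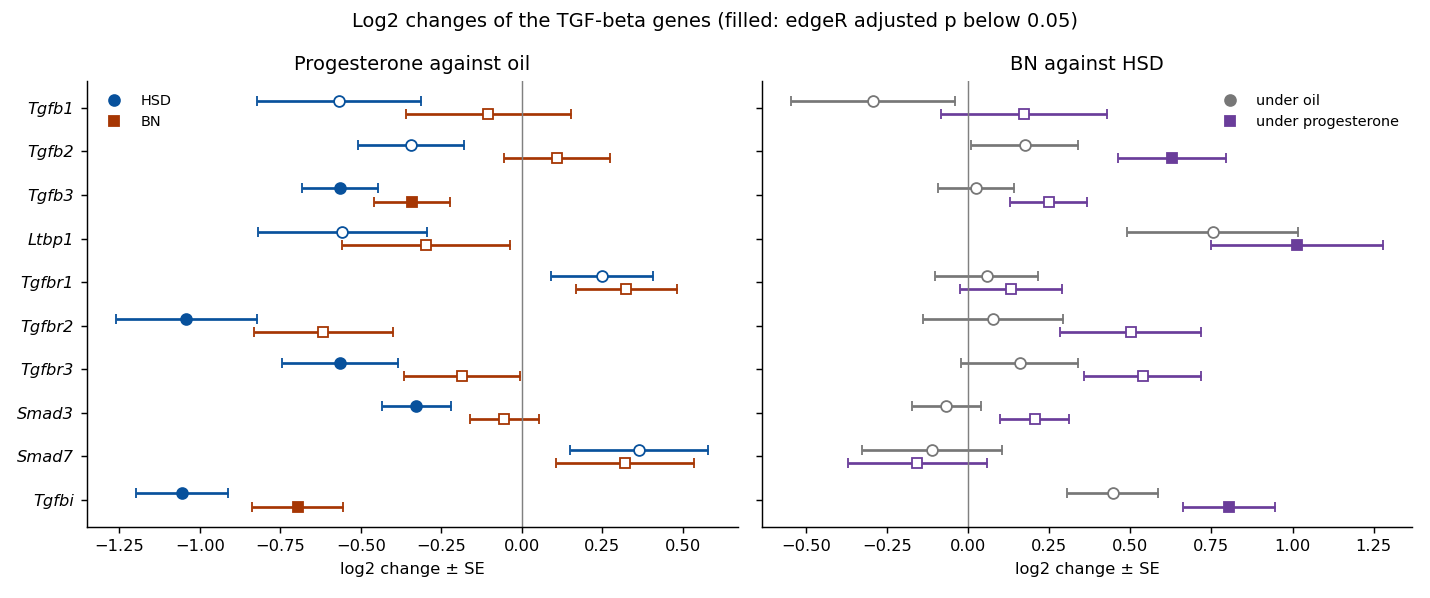
Log2 change of each member, progesterone against oil in each strain (left) and BN against HSD under each treatment (right); bars are ± SE of the fit over 12 libraries and filled points are calls at adjusted p below 0.05. Tgfbi lies lowest in both strains on the left, at -1.05 and -0.70, and BN values of Tgfbi, Ltbp1 and Tgfb2 are filled on the right under progesterone.

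The next comparison asked whether the strains differ in these genes. Under oil 0 members were called, where 5.69% of all genes were, and the members had a median log2 difference of 0.07, BN minus HSD, beside -0.00 over all genes. At an unadjusted p below 0.05 in edgeR there were 2, Ltbp1 at 0.75 ± 0.26 (adjusted p = 0.132) and Tgfbi at 0.45 ± 0.14 (adjusted p = 0.0919), and DESeq2 called 1 member and limma voom 2. Tgfbi passed without HSD-P4 replicate 2 (log2 0.45, adjusted p = 0.0296) or 3 (log2 0.44, adjusted p = 0.0406). The BN-Oil libraries of both genes lay above every HSD-Oil library.

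Under progesterone 3 members were higher in BN, where 5.73% of genes were called and 2.43% were called higher. Over all genes 381 were higher and 519 lower in BN, a balance that turned to 586 and 376 with library size alone, under which the same count of 3 members was called. Tgfbi differed by 0.80 ± 0.14 (edgeR adjusted p = 0.00562), Ltbp1 by 1.01 ± 0.26 (adjusted p = 0.0427) and Tgfb2 by 0.63 ± 0.17 (adjusted p = 0.0443). All 3 BN-P4 libraries of each gene lay above all 3 HSD-P4 libraries. The Tgfbi call was lost under 1 of the 23 other settings, the count of intron reads (log2 0.28, adjusted p = 0.62). The Tgfb2 call was lost under 13, among them each setting that left out a library other than HSD-Oil replicate 1 or 2, HSD-P4 replicate 2 or BN-P4 replicate 2, with differences between 0.41 (without BN-P4 replicate 1) and 0.67. The Ltbp1 call was lost under 12, among them without HSD-Oil replicate 3, HSD-P4 replicate 1 or 3, BN-Oil replicate 2 or 3, or BN-P4 replicate 1 or 3, with differences between 0.81 and 1.00. Tgfbr2 (log2 0.50, adjusted p = 0.198) and Tgfbr3 (log2 0.54, adjusted p = 0.104) were not called. Without HSD-P4 replicate 2 both were, at 0.72 (adjusted p = 0.0477) and 0.67 (adjusted p = 0.0453), and without HSD-P4 replicate 3 they were at 0.28 (adjusted p = 0.436) and 0.39 (adjusted p = 0.247). Leaving out HSD-P4 replicate 2 made the count of members called 5, where 9.52% of all genes were called. The count was 1 without HSD-Oil replicate 3, HSD-P4 replicate 1 or 3, BN-Oil replicate 2 or 3, or BN-P4 replicate 1 or 3. Those fits called between 2.14% and 5.28% of all genes. The reads were placed on the BN-derived rat genome assembly, and the part of strain sequence differences in these values was not tested.

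For the strain difference of the progesterone change, BN minus HSD, 0 members were called, where 0.0510% of all genes were, and 0 had an unadjusted p below 0.05 in edgeR or were called by DESeq2 or limma voom. The members' values ran from -0.04 ± 0.30 for Smad7 to 0.47 ± 0.36 for Tgfb1, with adjusted p from 0.737 to 0.992. The 95% interval for Tgfbi was -0.10 to 0.82 and for Tgfbr2 -0.28 to 1.13. A change called in one strain and not in the other is therefore not shown to differ between strains.

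Reads counted over introns and over exons were compared next, because intron reads come mostly from RNA not yet spliced. In HSD the falls of Tgfbi, Tgfbr2 and Tgfb3 were present in both kinds of reads. Their log2 changes in exon and intron reads were -1.08 and -1.01 for Tgfbi, -1.08 and -0.94 for Tgfbr2, and -0.58 and -0.64 for Tgfb3. The intron adjusted p was 0.00651, 0.000134 and 0.0352, and intron reads called 27.1% of 13523 tested genes. In BN the intron values were -1.24 for Tgfbi (adjusted p = 0.00239), -0.66 for Tgfbr2 (adjusted p = 0.00359) and -0.34 for Tgfb3 (adjusted p = 0.301), so 2 members were called, where 18.1% of genes were.

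The 5 other members with negative total-read changes in HSD had intron values near 0, with standard errors between 0.13 and 0.20. Smad3 changed by -0.80 in exon reads (adjusted p = 0.00677) and by -0.08 in intron reads (adjusted p = 0.698). Tgfb1 was at -0.75 and -0.13, Tgfbr3 at -0.69 and -0.15, Ltbp1 at -0.67 and 0.01, and Tgfb2 at -0.46 and 0.03 in exon and intron reads. Of these 5, Smad3 and Tgfbr3 were called in exon reads, where 38.9% of 14358 genes were called, and 0 in intron reads. Introns held 68.5% of Smad3 reads in HSD-Oil and 76.7% in HSD-P4, against 6.60% and 6.37% for Tgfbi. Total gene reads of Smad3 therefore weigh introns more than those of the other members do, and the averaged Smad3 change was -0.55 in exon reads (adjusted p = 0.00535) against -0.19 in total reads. Smad7 was at 0.27 and 0.80 in exon and intron reads, neither called. Intron shares also varied within groups. For Tgfbr3 they were 14.8%, 27.8% and 18.1% in HSD-Oil and 23.9%, 17.3% and 36.0% in HSD-P4. For Ltbp1 they were 9.48%, 19.1% and 9.91% in HSD-Oil and 18.1%, 12.9% and 22.9% in HSD-P4. HSD-P4 replicate 3 had the largest share of its group for each of the 5 members. The same library also had the largest share for Tgfbr2 and Tgfb3, so this trait does not set the 5 apart. For Tgfbi, Tgfbr1 and Smad7 another HSD-P4 library had a larger share than replicate 3. Exon and intron fits without this library were not made. The difference between exon and intron changes was not tested. Because the counting strand is not stated, intron reads from an overlapping or antisense gene cannot be told apart.

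**Figure D4:**
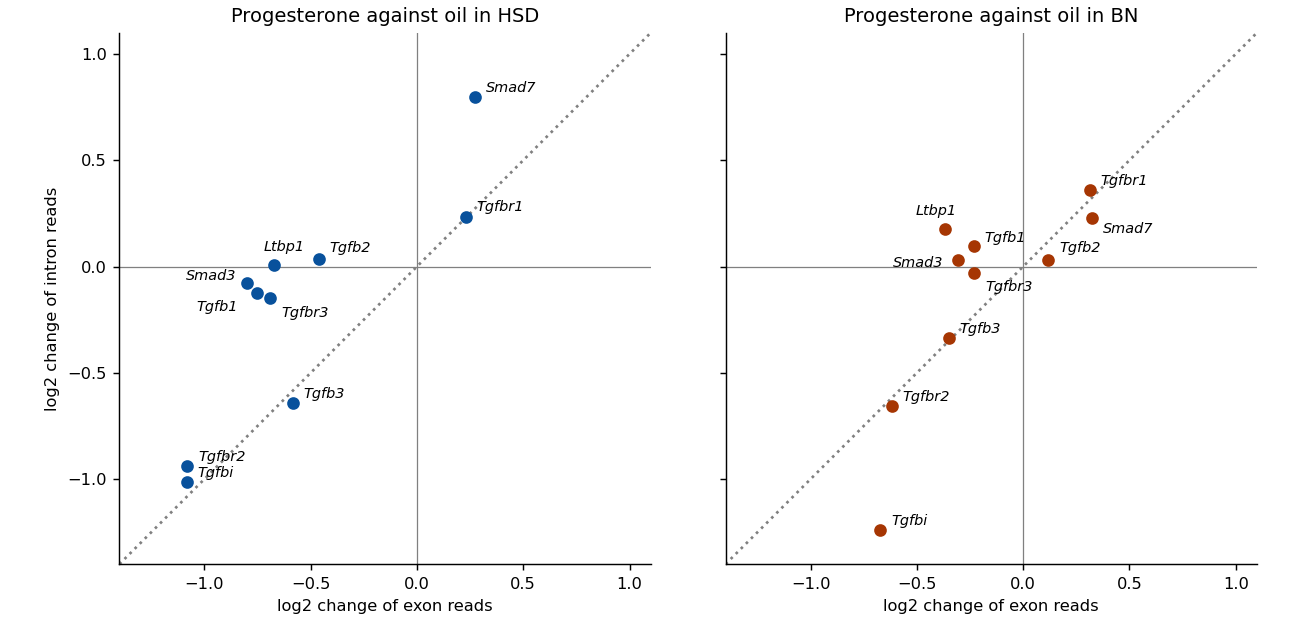
Log2 change of progesterone against oil in exon reads (horizontal) and intron reads (vertical) for the 10 members, in HSD (left) and BN (right); the dotted line marks equal change. In HSD, Tgfbi, Tgfbr2 and Tgfb3 lie near the line, and Smad3, Tgfb1, Tgfbr3, Ltbp1 and Tgfb2 lie near 0 on the vertical axis.

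The genomic positions of the members are on Rnor_5.0. Tgfbi lies on chromosome 17 at 10576349 to 10605606 on the minus strand, in 19 exons, and Tgfbr2 on chromosome 8 at 123585765 to 123671209 on the minus strand, in 7 exons. Tgfb1 lies on chromosome 1 at 83742151 to 83758471, plus strand, and Ltbp1 on chromosome 6 at 31097090 to 31491806, minus strand. Promoter windows, 250 bases before to 50 after each gene's start, were taken from RefSeq on build GRCr8, and all 10 members matched. The windows of Tgfbi and Tgfbr2 are shown as those of the members with the largest progesterone changes, and those of Tgfb1 and Ltbp1 as the ones that hold a match, in capitals.
Tgfbi, chr17:7990064-7990363, minus strand: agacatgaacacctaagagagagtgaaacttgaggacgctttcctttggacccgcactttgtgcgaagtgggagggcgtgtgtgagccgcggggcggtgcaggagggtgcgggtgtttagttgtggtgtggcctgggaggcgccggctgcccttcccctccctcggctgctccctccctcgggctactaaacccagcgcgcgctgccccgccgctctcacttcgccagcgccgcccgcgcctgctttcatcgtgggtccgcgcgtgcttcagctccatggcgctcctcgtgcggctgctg
Tgfbr2, chr8:124761420-124761719, minus strand: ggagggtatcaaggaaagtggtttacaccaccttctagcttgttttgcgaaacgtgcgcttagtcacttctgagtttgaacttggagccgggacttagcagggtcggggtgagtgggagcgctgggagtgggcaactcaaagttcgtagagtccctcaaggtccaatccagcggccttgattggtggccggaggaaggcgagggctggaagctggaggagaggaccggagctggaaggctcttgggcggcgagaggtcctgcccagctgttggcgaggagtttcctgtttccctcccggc
Tgfb1, chr1:90324062-90324361, plus strand: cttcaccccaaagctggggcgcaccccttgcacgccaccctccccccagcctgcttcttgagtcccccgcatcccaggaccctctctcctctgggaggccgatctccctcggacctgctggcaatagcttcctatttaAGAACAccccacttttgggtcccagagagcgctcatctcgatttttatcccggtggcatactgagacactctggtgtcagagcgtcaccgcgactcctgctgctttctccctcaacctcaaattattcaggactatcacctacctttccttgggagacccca
Ltbp1, chr6:26177252-26177551, minus strand: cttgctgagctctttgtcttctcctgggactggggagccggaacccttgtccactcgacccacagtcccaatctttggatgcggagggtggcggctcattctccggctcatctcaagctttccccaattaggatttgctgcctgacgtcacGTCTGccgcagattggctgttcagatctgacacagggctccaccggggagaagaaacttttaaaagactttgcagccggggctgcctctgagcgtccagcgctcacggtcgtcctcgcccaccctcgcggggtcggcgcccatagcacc
The searched motifs were the steroid receptor half-site AGAACA, which reads TGTTCT on the other strand, and the Smad-binding box with the letters CAGAC, which reads GTCTG on the other strand. The box is known for binding SMAD3 and SMAD4, and no match of one motif overlapped a match of the other in these windows. A half-site was found in 1 of 10 member windows, Tgfb1, and in 20.68% of 33469 rat promoters. The Smad-binding box was found in 1 of 10, Ltbp1, and in 50.06% of promoters. Neither printed window of Tgfbi and Tgfbr2 holds the searched letters. The windows' GC content was 66.67% for Tgfbi and 59% for Tgfbr2, beside a median of 51.67% over all promoters.

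Other genes of the pathway were taken from 4 lists of 68 genes, and genes of each list but the receptor-level one were called in both directions. Pcsk6, Fbn2, Cd109, Tgif2 and Fbln5 are named below to complete counts and were chosen after their values were seen. Of 15 latent complex and activation genes, 0 rose and 3 fell in HSD (Thbs1, Ltbp3 and Pcsk6), 20% of the list beside 39.1% of all tested genes, with a median of -0.33. In BN 1 rose (Fbn2, 1.15) and 2 fell (Thbs1 and Itgb6), again 20% beside 25.8% of all genes, with a median of -0.12. Thbs1 encodes thrombospondin 1, an activator of latent TGF-beta. It fell by 1.01 ± 0.26 in HSD (adjusted p = 0.00868) and by 1.66 ± 0.26 in BN (adjusted p = 0.000752) on the log2 scale. The HSD call of Thbs1 was lost in intron reads (log2 -0.64, adjusted p = 0.0755). Its level was 156, 101 and 133 CPM in HSD-Oil, 77.3, 75.6 and 41.2 in HSD-P4, 195, 151 and 156 in BN-Oil and 52.3, 36.7 and 69.8 in BN-P4, with no overlap within a strain. Ltbp3, a second latent binding protein gene, was at -0.70 in HSD (adjusted p = 0.0231) and -0.61 in BN (adjusted p = 0.0585), and its HSD call was lost without HSD-Oil replicate 1, HSD-P4 replicate 1 or HSD-P4 replicate 3 (-0.57, -0.67 and -0.49). Ltbp4 was called averaged over strains (log2 -0.64, adjusted p = 0.0346) and in neither strain, with libraries from 122 to 345 CPM in HSD-P4, and its HSD change of -0.77 (adjusted p = 0.0786) was called without HSD-P4 replicate 2 (log2 -1.18, adjusted p = 0.0104) and was -0.47 without HSD-P4 replicate 3 (adjusted p = 0.243). In intron reads its averaged value was 0.03. Itgb6, an integrin subunit gene of epithelium, was called in BN (log2 -1.43, adjusted p = 0.0348) at levels of 1.63 ± 0.526 CPM under oil and 0.583 ± 0.372 under progesterone, a call lost without BN-Oil replicate 2 or 3 or BN-P4 replicate 1 or 2 (changes between -1.12 and -1.31).

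Among 11 receptor-level regulators, 2 rose and 0 fell in each strain, Tgfbrap1 and Fkbp1a in HSD and Tgfbrap1 and Cd109 in BN. That is 18.2% of the list, beside 39.1% of all genes in HSD and 25.8% in BN. Tgfbrap1, whose product associates with TGF-beta receptors, rose by 0.33 ± 0.11 in HSD (adjusted p = 0.0328) and by 0.35 ± 0.11 in BN (adjusted p = 0.0352), calls lost under 10 and 12 of 23 other settings. In HSD these include leaving out any HSD-Oil library or HSD-P4 replicate 1 (0.23 to 0.34), and in BN any oil library of either strain or BN-P4 replicate 1 or 3 (0.27 to 0.37). Fkbp1a encodes FKBP12, a protein that binds the type I receptor. It rose in HSD by 0.42 ± 0.11 (adjusted p = 0.0088) and was at 0.21 in BN (adjusted p = 0.18). The HSD call was lost with log2 RPKM in limma (0.32), when only the groups compared were fitted (0.42) and in intron reads (0.21). The co-receptor gene Eng was at -0.31 in HSD (adjusted p = 0.443) and -0.32 in BN (adjusted p = 0.478), and the pseudoreceptor gene Bambi at 0.02 and -0.02.

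Of 18 tested Smads and Smad regulators, 4 rose and 1 fell in each strain, 27.8% of the list beside 39.1% of all genes in HSD and 25.8% in BN. Strap, Usp15 and Tgif2 rose in both, beside Wwp1 in HSD and Skil in BN. Tgif1, a corepressor gene, was the one that fell, from 131, 107 and 136 to 37.3, 38.5 and 50.7 CPM in HSD and from 102, 107 and 110.3 to 42.3, 40.3 and 42.7 CPM in BN. The HSD fit was -1.56 ± 0.13 (adjusted p = 2.42e-06) and the BN fit -1.35 ± 0.13 (adjusted p = 1.75e-05). Strap, Usp15 and Wwp1, which act on receptors or Smads, were at 0.64, 0.60 and 0.72 in HSD, all called, and at 0.42, 0.44 and 0.39 in BN, where Wwp1 was not (adjusted p = 0.0683). Strap is uncertain in level, since between 68.6% and 71.4% of its reads per group were placed uniquely. The BN call of Usp15 was lost without BN-Oil replicate 1 or 3 or BN-P4 replicate 1 or 3 (0.36 to 0.44). In intron reads the HSD calls of Wwp1 (0.14, adjusted p = 0.597) and Usp15 (0.37, adjusted p = 0.131) were lost. The BN call of Strap was lost there too (0.17, adjusted p = 0.339). Skil, a corepressor gene that TGF-beta induces, rose in BN by 0.73 ± 0.14 (adjusted p = 0.00226) and was at 0.28 in HSD (adjusted p = 0.118). Smad2 was called in the averaged comparison (log2 0.26, adjusted p = 0.0132) and not within a strain, and Smad4 was not called (averaged log2 -0.14, adjusted p = 0.104).

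Among 22 matrix and other targets, 2 rose and 2 fell in HSD and 1 rose and 2 fell in BN, with medians of 0.07 and 0.03. The called shares were 18.2% in HSD and 13.6% in BN, beside 39.1% and 25.8% of all genes. Lox and Fbln5 fell in both strains. The values were, for Lox, a lysyl oxidase gene, -1.08 ± 0.17 in HSD (adjusted p = 0.000311) and -0.88 ± 0.17 in BN (adjusted p = 0.00219), and, for Fbln5, an elastic fibre gene, -0.47 (adjusted p = 0.0236) and -0.52 (adjusted p = 0.0203). Leaving out HSD-Oil replicate 1 or 3 or HSD-P4 replicate 1 or 3 ended the HSD call of Fbln5 (-0.39 to -0.44), and leaving out BN-Oil replicate 1 or 3 or BN-P4 replicate 2 ended its BN call (-0.41 to -0.52). Id1 rose in HSD (log2 0.85, adjusted p = 0.00211) and in BN (log2 0.52, adjusted p = 0.0435), Timp1 in HSD (log2 0.77, adjusted p = 0.00742) and was at 0.40 in BN (adjusted p = 0.163), and Klf10 was at -0.03 and -0.11. The BN call of Id1 was lost without any one of the HSD-Oil or BN-Oil libraries, HSD-P4 replicate 1, or BN-P4 replicate 2 or 3 (0.37 to 0.53). The HSD call of Timp1 was lost in intron reads (log2 1.15, adjusted p = 0.0798). Whether the change in Timp1 differed between strains was tested, and it was not called (log2 -0.37, adjusted p = 0.854).

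**Figure D5:**
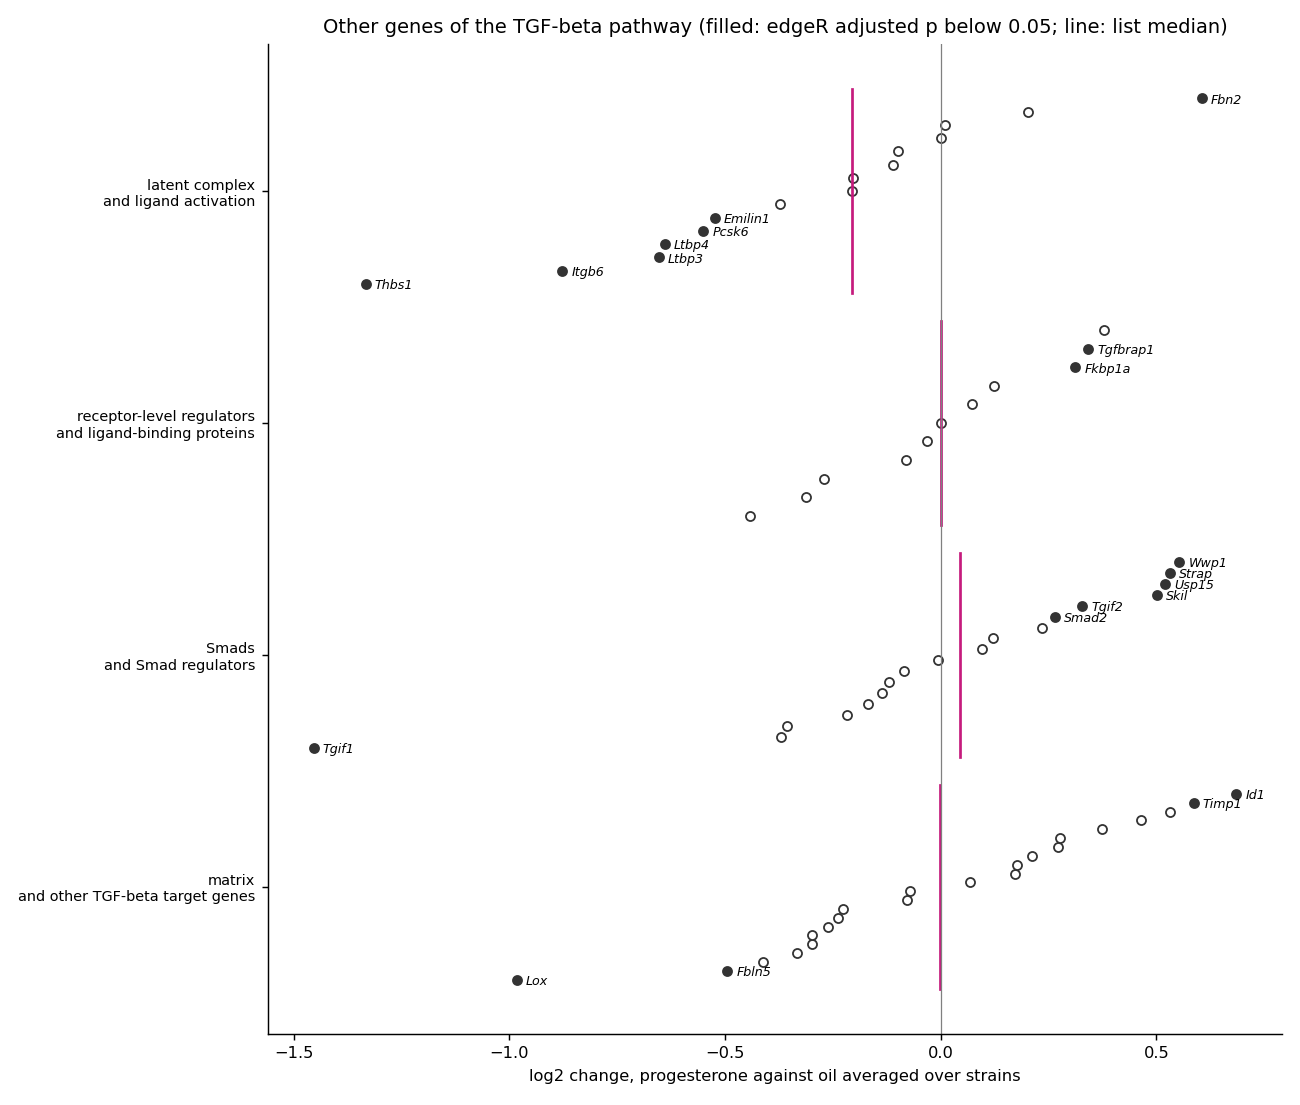
Log2 change averaged over strains for the other genes of the pathway, 1 point a gene in each of 4 lists; filled points were called, labels name them, and the vertical coloured line is the median of each list. Tgif1 lies lowest of all at -1.45, Thbs1 at -1.33, and Lox at -0.98.

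The genes whose pattern over the 12 libraries was most like those of the 3 members with the widest range of group means were found by the mean absolute difference of centred log2 CPM. For Tgfbi, with a range of 1.51, they were Gpnmb (0.105), Nynrin (0.108) and Ctdsp2 (0.118), where the median over genes was 0.525. For Ltbp1, with a range of 1.35, they were Itga7 (0.147), Astn1 (0.161) and Akap12 (0.163), against a median of 0.569. For Tgfbr2, with a range of 1.16, the 3 nearest included Tep1 (0.0856) and Grn (0.0913), against a median of 0.494. These are likenesses of level over libraries and carry no test.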

How the data were processed

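Each of the 12 libraries came with a table per gene. Tests used the counts in the total gene reads column that the authors deposited. Per the file headers these include exon and intron reads, and exon, intron and unique gene reads have columns of their own. RPKM, deposited by the authors, is per the file headers scaled by exon length and total gene reads. It was recomputed from the counts within 0.1% for 98.59% of genes. Per the submitters' processing notes the genome build was Rnor_5.0. Aligner, counter and counting strand: not given in the sources used here.

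The count test was edgeR 4.0.16 in R 4.3.3. The filterByExpr step kept 15697 genes with 99.95% of reads, TMM factors scaled the libraries, and the robust quasi-likelihood fit used 4 group means (8 residual degrees of freedom, common biological coefficient of variation 0.157). Adjustment was by Benjamini-Hochberg over every tested gene with calls below 0.05, and an adjusted p with no other tool named is from this fit. The standard error is the absolute log2 change over the square root of F. The 95% intervals use the t distribution with 8 degrees of freedom and not those of the test, so an interval and its p-value need not match. For Tgfb1 in HSD the unadjusted edgeR p was 0.0439, while the interval ran from -1.16 to 0.018. The procedure was also run on simulated data, but the outcome is not given here and no result rests on it. Results were recomputed under 22 other settings, 12 of them leaving out a library and the rest using DESeq2 1.42.0 and limma 3.58.1 among others, and the count of intron reads, chosen after seeing the data. The limma fit on log2(RPKM + 0.1) used genes with a mean RPKM of at least 0.1.

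The members, the 4 pathway lists and the 8 marker lists were chosen with earlier results of these data known. Named genes are all members, 9 key pathway genes, up to 4 genes of each list with the widest averaged change among those called, Fkbp5, and the 3 genes most like each of 3 members. One key gene, also left out of its list, and one of the most alike genes are not reported here. No outlier test was made, since groups hold 3 libraries. The chi-square of any pair of libraries in a group exceeded sampling noise (at least 4.71 per degree of freedom). In HSD-P4 it was 82.9 for replicates 2 and 3, 40.5 for 1 and 3 and 26.1 for 1 and 2. In the other groups it was at most 32.3, in HSD-Oil. The edgeR fit pooled the spread of each gene over the 4 groups, so HSD tests did not rest on the HSD spread alone.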

Additional observations from a re-analysis of the deposited data

How the results depend on the processing

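Of 1360 values of the members and settings, 1199 kept their direction and side of the threshold, 71 lost a call, 50 gained one, and 40 changed sign between values called in neither setting. No called value of a member changed sign. In HSD, where 5 members were called, 3 were with only the groups compared and 3 with intron reads. Library size alone gave 7 and log2 RPKM 6. Over all genes these settings called 27.2%, 27.1%, 40.7% and 34.5% in HSD, against 39.1%. In BN, where 2 were called, there was 1 with no filter on low counts, 1 with exon reads and 1 with log2 RPKM in limma. There were 5 with voom and 4 with only the groups compared. Over all genes these settings called 17.9%, 23.9%, 20.4%, 42.9% and 37.1% in BN, against 25.8%. With only the groups compared, more members were therefore called in BN than in HSD, the reverse of the main fit. Averaged over strains (5 called), intron reads gave 3 and voom 7, where they called 38.6% and 54.4% of all genes, against 48.4%. Under oil, strain differences (0 called) numbered 1 with the DESeq2 Wald test, 2 with voom and 1 with only the groups compared. Under progesterone (3 called) they numbered 1 each with exon reads, log2 RPKM, only the groups compared and intron reads, and 4 with voom. Over all genes voom called 12.5% under oil and 10.8% under progesterone, against 5.69% and 5.73%. Under oil the DESeq2 Wald test called 7.59% and only the groups compared 7.18%. Under progesterone exon reads, log2 RPKM, only the groups compared and intron reads called 3.94%, 3.10%, 2.70% and 5.70%. The causes were not tested. Leaving out each library in turn gave 3 to 7 members in HSD, 1 to 4 in BN and 3 to 8 averaged. It gave 0 to 1 under oil, 1 to 5 under progesterone and 0 for the strain difference of the change. The share of all genes called then ran from 30.1% to 41.3% in HSD, 16.4% to 31.8% in BN and 42.8% to 50.7% averaged. Under oil the share ran from 2.74% to 8.34% and under progesterone from 2.14% to 9.52%. The averaged Ltbp4 change reversed to 0.0297 in intron reads (adjusted p = 0.925).

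Library size alone moved the median of all genes in HSD to -0.14, and log2 RPKM moved it to -0.12, beside -0.02. The HSD calls split into 3193 higher and 2940 lower as reported, 2355 and 4034 with library size alone, 2676 and 3540 with upper-quartile scaling and 2350 and 3098 with log2 RPKM. In BN, upper-quartile scaling gave 1759 higher and 2251 lower, against 2196 and 1849. Averaged over strains, library size alone gave 3129 higher and 4637 lower, against 3868 and 3727, and under progesterone BN was higher in 586 and lower in 376 genes, against 381 and 519. No paired analysis was possible because title numbers join no libraries across groups and the replicate numbers are names in accession order.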
